A study of Homo sapiens with 6 samples.

Results

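SKI, SKIL, PRDM16, TGIF1 and the SMAD genes SMAD2, SMAD3, SMAD4, SMAD6 and SMAD7 were followed in U2OS cells, a human osteosarcoma line, after exposure to a topoisomerase II poison. These 9 genes were selected by name out of the 67140 gene identifiers counted in the study. SKI and PRDM16 were chosen by their measured counts, because they are counted in all 6 libraries and each differed between the drugs, so their fold changes are given as a description with no test. The RNA-Seq libraries came from wild-type U2OS cells, 2 libraries in each of 3 groups: cells without treatment (control), cells given 1.5 µg/ml adriamycin for 4 h, and cells given 100 µM etoposide for 4 h. Adriamycin intercalates into DNA and poisons topoisomerase II, whereas etoposide poisons the enzyme without intercalating. All libraries are of 1 cell line, the doses of the drugs are not matched, and the sources do not say that the 2 libraries of a group came from separate cultures, so p-values measure only the spread between these libraries, which may be technical. The values are raw counts of reads per gene. In bulk RNA, a lower count from fewer expressing cells cannot be told apart from less RNA per cell.

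SMAD proteins carry signals from receptors of the TGF-β family to the nucleus. Ligands of the TGF-β and activin type lead to phosphorylation of SMAD2 and SMAD3, the receptor-regulated SMADs of this branch, which join SMAD4, the shared partner, and bind DNA. SMAD6 and SMAD7 are inhibitory SMADs that act on the receptors and on complex formation and are themselves induced by the pathway. SKI and SKIL (SnoN) are corepressors that bind SMAD complexes and recruit histone deacetylases, and TGIF1 is a homeodomain corepressor of SMAD target genes. PRDM16 is a zinc finger factor of the PR domain family, known for its part in brown fat and blood stem cells, that binds SKI and can repress TGF-β signalling.

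The promoters of both inhibitory SMADs are printed, with the SMAD binding motifs upstream of the canonical transcript start marked. In each, 250 bases before the start are given 5′ to 3′ on the strand of the gene, from RefSeq (GRCh38.p14). Capitals mark the palindrome GTCTAGAC in SMAD6 and CAGAC, a form of the minimal SMAD binding element, in SMAD7. SMAD6 lies at chr15:66701986-66702235 on the plus strand, and SMAD7 at chr18:48950966-48951215 on the minus strand.
SMAD6: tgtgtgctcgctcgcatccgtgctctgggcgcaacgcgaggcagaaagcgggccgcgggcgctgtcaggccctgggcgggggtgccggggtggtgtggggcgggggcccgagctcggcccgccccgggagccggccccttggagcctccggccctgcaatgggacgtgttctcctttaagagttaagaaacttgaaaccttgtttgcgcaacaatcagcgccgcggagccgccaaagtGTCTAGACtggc
SMAD7: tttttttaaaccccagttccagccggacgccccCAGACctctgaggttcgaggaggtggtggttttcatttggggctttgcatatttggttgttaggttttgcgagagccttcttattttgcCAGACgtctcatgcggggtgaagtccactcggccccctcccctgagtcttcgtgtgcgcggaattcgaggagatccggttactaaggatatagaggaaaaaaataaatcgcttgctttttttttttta

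The palindrome in SMAD6 began 12 bases before the start. SMAD7 held 2 copies of CAGAC, which began 217 and 128 bases before the start. Windows reaching 250 bases before and 50 after the start were searched on both strands for CAGAC (or its complement GTCTG) and for GTCTAGAC, which does not contain the shorter motif on either strand. Of the 9 genes, 7 had a window. CAGAC was found in 3 of these 7, SKIL, SMAD3 and SMAD7, and in 45.3% of all 35116 windows, so its presence is common. In SKIL the match, GTCTG, began 107 bases before the start, so an upstream match is not particular to the inhibitory SMADs. GTCTAGAC was found in 1 of the 7, SMAD6, and in 0.202% of all windows. SMAD2, SMAD3, SMAD7 and TGIF1 have more than 1 window, and for them only the window at the canonical start was described. The 35116 windows belong to 27305 genes, so they hold further starts of some genes. SKI and PRDM16 are not in this table. A match of letters is a description of the window and no evidence of binding.

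SKI and PRDM16 were the members with counts in all 6 libraries. Both lie on the short arm of chromosome 1, where the 220 genes shared by the 6 libraries are. SKI (ENSG00000157933) spans chr1:2227388-2310213 and PRDM16 (ENSG00000142611) chr1:3069168-3438621 in GRCh38, both on the plus strand, with 758955 bases between them. Neither shares exon bases with another annotated gene. Over the shared genes, the libraries held 59357 to 92794 counts, which are sums over part of the genes and not depths. Counts were scaled by edgeR's TMM factors over the shared genes and are called normalized counts, and fold changes with their standard errors (SE) come from a single edgeR quasi-likelihood fit of all 6 libraries. Both drug groups were compared with the same control libraries, so those comparisons are not independent. In this fit, 94 genes passed the filter on low counts, SKI and PRDM16 among them. A call needed an adjusted p below 0.01 together with a log2 fold change beyond 1 in either direction. The share called was 5.32% with etoposide against control, 8.51% with adriamycin against control and 12.8% with adriamycin against etoposide. SKI or PRDM16 was past both thresholds in each comparison, 1 of 2 each time. These contrasts chose the genes and nothing is read from that count.

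SKI transcripts were lower with both drugs and lowest with adriamycin. The control libraries held 2643 and 1815 counts of SKI, the etoposide libraries 1749 and 1219, and the adriamycin libraries 609 and 476. After normalization, SKI stood at 2141 and 2082 in control, 1184 and 1283 in etoposide and 659 and 665 in adriamycin. The 3 groups did not overlap, and the libraries of a group lay close together beside the distances between groups. The means were 2112 ± 41.9 in control, 1233 ± 69.8 in etoposide and 662 ± 4.45 in adriamycin (SD, n = 2). With etoposide SKI was thus 41.7% lower than in control, a log2 fold change of -0.78 (SE 0.091). With adriamycin it was 68.7% lower, or 3.19-fold, a log2 fold change of -1.67 (SE 0.097). Between the drugs, SKI was lower with adriamycin by a log2 fold change of -0.90 (SE 0.097). The median log2 fold change of the 94 genes was 0.027 with etoposide, -0.072 with adriamycin and -0.069 between the drugs.

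**Figure D1:**
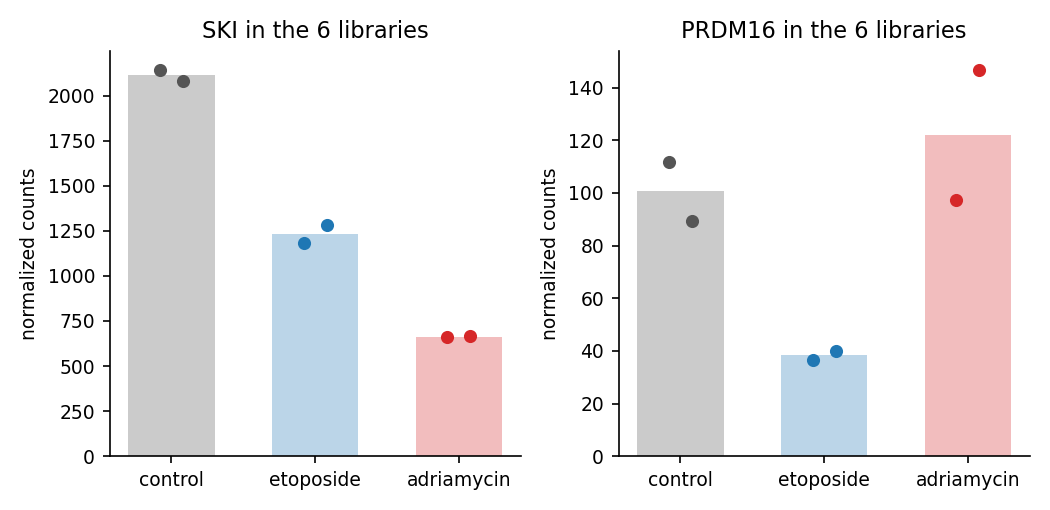
Normalized counts of SKI (left) and PRDM16 (right) in the 6 libraries, with a point for each library and a bar at the group mean. SKI steps down from 2112 in control to 1233 with etoposide and 662 with adriamycin, whereas PRDM16 is low only in the etoposide libraries (36.6 and 40.0) and its control and adriamycin libraries overlap.

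The place of SKI among the abundant transcripts of this region changed accordingly. By count, SKI was 8th of the 220 shared genes in both control libraries, 16th and 13th in the etoposide libraries and 24th and 23rd in the adriamycin libraries. It took 2.96% and 2.84% of the shared counts in control, 1.88% and 1.99% with etoposide and 0.764% and 0.802% with adriamycin. By fold change, SKI was the 9th lowest of 94 genes with etoposide and the 5th lowest with adriamycin. The 4 genes below it with adriamycin, named here because they outrank SKI, were the noncoding genes MRPL20-DT, LINC01409, LINC01134 and MRPL20-AS1, with log2 fold changes of -2.48, -2.0, -1.75 and -1.75. They were far less abundant in control, with means of 66.3, 27.0, 16.7 and 193 normalized counts, against 2112 for SKI.

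PRDM16 showed the reverse order of the drugs. Its counts were 138 and 78 in control, 54 and 38 with etoposide and 90 and 105 with adriamycin. Normalized, these were 112 and 89.5 in control, 36.6 and 40.0 with etoposide and 97.3 and 147 with adriamycin. Both etoposide libraries were below all others, and of the adriamycin libraries 1 lay between the control values and the other above them. The means were 101 ± 15.8 in control, 38.3 ± 2.43 with etoposide and 122 ± 34.9 with adriamycin (SD, n = 2). With etoposide PRDM16 was 62.4% lower than in control, a log2 fold change of -1.41 (SE 0.28), the 2nd lowest of the 94 genes. With adriamycin its log2 fold change against control was 0.25 (SE 0.25), which is no larger than its error. Against etoposide it was 3.17-fold higher with adriamycin, a log2 fold change of 1.66 (SE 0.28) and the highest of the 94 genes.

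The PRDM16 values rest on few reads. Exact Poisson intervals (95%), which cover counting error alone, reached from 26.9 to 52.2 for the 38 counts of the 2nd etoposide library and from 116 to 163 for the 138 counts of the 1st control library. The adriamycin libraries differed from each other by more than counting error, since the intervals of their normalized counts, which round to 78.3 to 120 and 120 to 178, did not overlap. Without the 2nd adriamycin library, the log2 fold change of PRDM16 against control became -0.042, and without the 1st it became 0.59, so its direction with adriamycin depended on 1 library. With etoposide against control, its log2 fold change lay between -1.57 and -1.23 in the fits that left out a library, and without the 1st etoposide library 0 of the tested genes were called, PRDM16 included.

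Ratios of counts within a library do not depend on any scaling between libraries. SKI gave 19.2 and 23.3 counts for each PRDM16 count in control, 32.4 and 32.1 with etoposide and 6.77 and 4.53 with adriamycin. The ratio was thus higher with etoposide and lower with adriamycin than in either control library, and the groups did not overlap. The exact 95% intervals of the adriamycin ratios, 5.42 to 8.54 and 3.66 to 5.66, lay below those of all other libraries. The intervals of control and etoposide did overlap, as 18.5 to 29.6 in the 2nd control library and 24.7 to 43.3 in the 1st etoposide library show. These ratios are of read counts and not of levels per length.

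Each gene was also set against the tested gene next to it. FAAP20, a subunit of the Fanconi anaemia core complex, is the closest tested gene before SKI and is read from the opposite strand, with 14668 bases between the starts. SKI gave 1.67 and 1.51 counts for each FAAP20 count in control, 0.834 and 1.03 with etoposide and 0.387 and 0.395 with adriamycin, in the order of the SKI values themselves. PRDM16-DT, a noncoding gene, starts 77 bases from the PRDM16 start and is read in the other direction. PRDM16 gave 2.76 and 2.17 counts for each PRDM16-DT count in control, 0.730 and 0.494 with etoposide and 2.31 and 3.28 with adriamycin. The etoposide ratios were below those of all other libraries, while control and adriamycin overlapped. Normalized counts of PRDM16-DT were 40.5 and 41.3 in control, 50.1 and 81.0 with etoposide and 42.2 and 44.7 with adriamycin, so the divergent transcript was not low in the libraries where PRDM16 was. Against ARHGEF16, a tested gene on the far side, the PRDM16 ratio was 0.486 and 0.404 in control, 0.197 and 0.194 with etoposide and 0.629 and 0.882 with adriamycin.

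**Figure D2:**
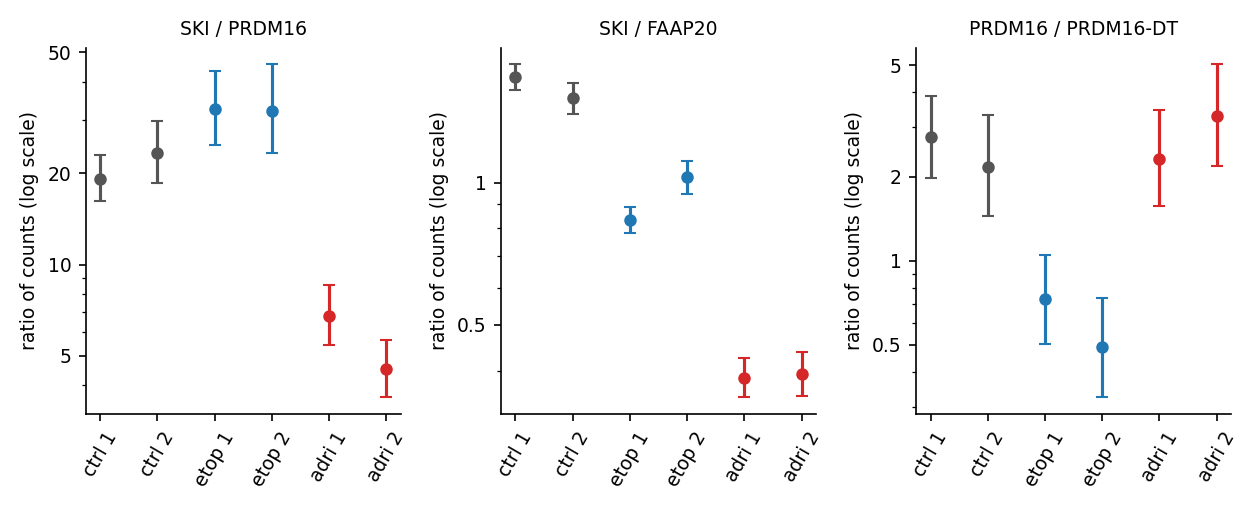
Ratios of raw counts within each library on a log scale, with exact 95% intervals for counting error, for SKI over PRDM16, SKI over FAAP20 and PRDM16 over PRDM16-DT (ctrl, control; etop, etoposide; adri, adriamycin). SKI over FAAP20 falls from 1.67 and 1.51 in control to 0.387 and 0.395 with adriamycin, and PRDM16 over PRDM16-DT is lowest in the etoposide libraries at 0.730 and 0.494.

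The 3 nearest tested genes on each side of SKI and of PRDM16 were taken by position, not by their values, and could be tested. With etoposide against control, 1 of these 12 neighbours was called by edgeR (adjusted over the 94 genes by Benjamini and Hochberg), and with adriamycin against control 0 of 12. The neighbour called, TNFRSF14, had 8 to 10 counts in the control and adriamycin libraries and passed the filter on low counts through the etoposide libraries, so the count of 1 is no support for a change among the neighbours. At an unadjusted p under 0.05 there were 6 of 12 neighbours in each comparison, near the 40 and 51 of all 94 genes, and the DESeq2 Wald test called 1 and 0. The median log2 fold change of the 12 was -0.042 with etoposide and -0.48 with adriamycin, against 0.027 and -0.072 over all tested genes. Between the drugs, 3 of 12 neighbours were called, all lower with adriamycin, beside the 12.8% called over all genes. TNFRSF14 was among them and, having passed the filter through the etoposide libraries, is no support for a change here either. The median log2 fold change of the 12 neighbours between the drugs was -0.41. The DESeq2 Wald test called 2 of 12, edgeR called 0 without either etoposide library and 1 without the 2nd adriamycin library, and 1 was called when at least 10 counts were required in every library.

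Around SKI, no neighbour was called against control with either drug. FAAP20 was at 1283 and 1382 normalized counts in control, 1420 and 1251 with etoposide and 1701 and 1685 with adriamycin. Its log2 fold change was 0.0074 (SE 0.092) with etoposide and 0.35 (SE 0.092) with adriamycin, the latter with an adjusted p of 0.00104 by edgeR but below the fold threshold. The adriamycin value of FAAP20 depended on the scaling, at 0.13 (SE 0.088) by library size alone and 0.54 (SE 0.091) by upper quartiles. PRKCZ, the gene of an atypical protein kinase C, had a log2 fold change of -0.69 (SE 0.12, adjusted p = 6.28e-07 by edgeR) with etoposide, also short of the fold threshold, and -0.23 (SE 0.12) with adriamycin. Its antisense gene PRKCZ-AS1 was at -0.76 (SE 0.29) and -0.49 (SE 0.30). On the other side, MORN1, which codes for a protein of MORN repeats, was at 0.58 (SE 0.19) with etoposide and -0.49 (SE 0.21) with adriamycin. MORN1 was called between the drugs at -1.07 (adjusted p = 2.63e-06 by edgeR), a call that was lost without the 2nd adriamycin library (-0.81), without the 1st or the 2nd etoposide library (-1.10 and -0.98) and with DESeq2's size factors (-1.0). The processed pseudogene ENSG00000269896 was called between the drugs as well, at -1.62 (adjusted p = 0.000474 by edgeR) from 6 to 70 counts a library. ENSG00000269896 lies inside MORN1 on the same strand without shared exon bases, so the calls of MORN1 and the pseudogene may not be independent. Its call was lost without the 2nd adriamycin library (-1.11) and without either etoposide library (-1.75 and -1.45). The noncoding ENSG00000287356 lay at 0.11 (SE 0.44) and 0.036 (SE 0.47) against control.

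Around PRDM16, the neighbour past both thresholds was TNFRSF14, the gene of the herpesvirus entry mediator, a receptor of the TNF receptor family. TNFRSF14 had 10 and 8 counts in control, 68 and 33 with etoposide and 10 and 9 with adriamycin, with a log2 fold change of 2.24 (SE 0.48) for etoposide against control. Having passed the filter only through the group where it is high, it is given as a description without a p. Its call against control was lost without any 1 of the control or etoposide libraries, with log2 fold changes from 2.0 to 2.39. Between the drugs TNFRSF14 was lower with adriamycin by a log2 fold change of -1.81, a call that was lost without the 1st adriamycin library (-1.65), without either etoposide library (-1.55 and -1.94) and by the DESeq2 Wald test (-1.73). PRXL2B, which codes for a prostamide and prostaglandin F synthase, had log2 fold changes of -0.41 (SE 0.11, adjusted p = 0.00169 by edgeR) with etoposide and -0.86 (SE 0.12, adjusted p = 4.64e-10 by edgeR) with adriamycin, both below the fold threshold, and was called with adriamycin under scaling by library size alone (-1.08). PRDM16-DT was at 0.65 (SE 0.32, adjusted p = 0.113 by edgeR) and 0.085 (SE 0.36). On the far side, ARHGEF16 was at -0.21 (SE 0.16) and -0.50 (SE 0.17), and MEGF6, which codes for a protein of EGF repeats, at -0.091 (SE 0.36) and -0.48 (SE 0.40). The noncoding ENSG00000272235 lies inside PRDM16 on the opposite strand without shared exon bases and had 0 counts in the 2nd adriamycin library and at most 23 in any. PRKCZ, PRKCZ-AS1, FAAP20, MORN1, ENSG00000287356, PRXL2B and TNFRSF14 share exon bases with a gene on the opposite strand, and since the strand setting of the counting is not given in the sources used here, their reads and those of the partner cannot be told apart.

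**Figure D3:**
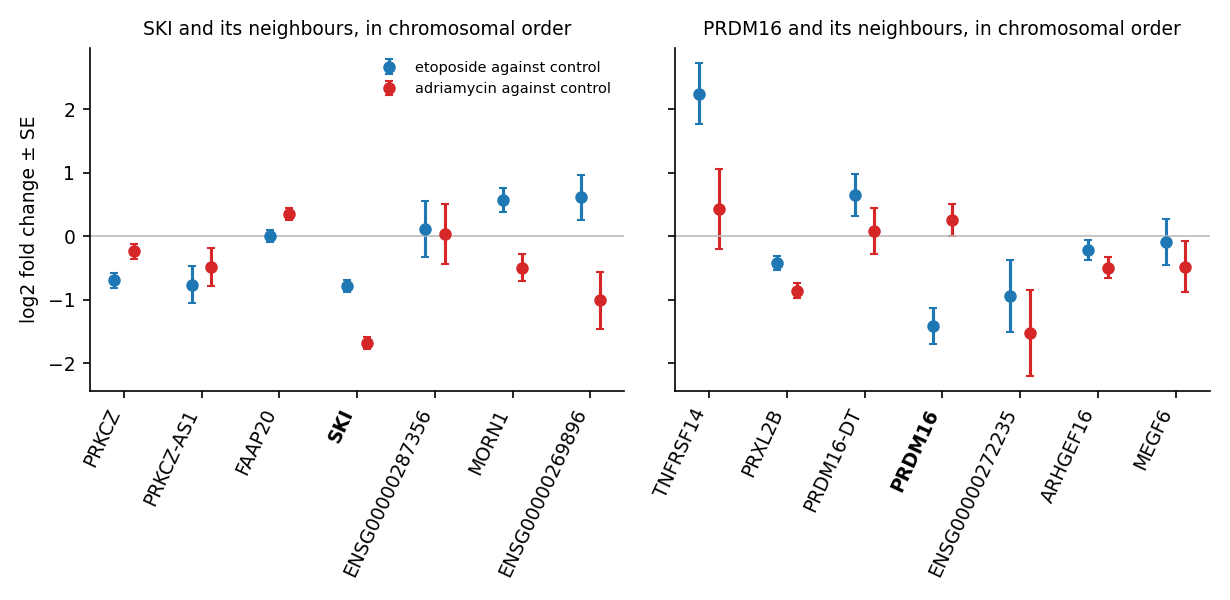
Log2 fold changes against control with SE for SKI and PRDM16 (bold) and the 3 nearest tested genes on each side, in chromosomal order, etoposide in blue and adriamycin in red. SKI (-0.78 and -1.67) lies beside FAAP20 at 0.0074 and 0.35, and PRDM16 with etoposide (-1.41) beside PRDM16-DT at 0.65.

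In the plane of both fold changes against control, 26 of the 94 genes were lower with both drugs, as SKI was. By sign, 17 were lower with etoposide and higher with adriamycin, and PRDM16 fell among these. Another 25 were higher with etoposide and lower with adriamycin, and 26 were higher with both. These counts use signs without a threshold, and the adriamycin value of PRDM16, 0.25 (SE 0.25), does not settle its sign. Likeness was measured over these 2 fold changes, by the Euclidean distance between genes on the log2 scale. The genes closest to SKI were ENSG00000272235 at a distance of 0.22, TP73 at 0.48 and ENSG00000284703 at 0.75. TP73, a transcription factor gene of the p53 family, stood at 441 and 454 normalized counts in control, 313 and 358 with etoposide and 174 and 177 with adriamycin, the same stepwise order as SKI. ENSG00000284703 was at 177 and 195, 82.6 and 94.7, and 98.4 and 88.0, so its drug groups overlapped. ENSG00000272235 comes from few counts, and its closeness is accordingly uncertain.

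The genes closest to PRDM16 were LINC02780 at a distance of 0.60, ENSG00000230021 at 0.61 and DVL1 at 0.79. LINC02780, a noncoding gene, stood at 765 and 795 normalized counts in control, 441 and 396 with etoposide and 771 and 729 with adriamycin. DVL1, which codes for a Dishevelled protein of Wnt signalling, stood at 3396 and 3081 in control, 1937 and 1925 with etoposide and 3073 and 2636 with adriamycin. In both genes the etoposide libraries were below all others, as in PRDM16. Their log2 fold changes with etoposide, -0.89 (SE 0.11) and -0.75 (SE 0.089), were smaller than that of PRDM16. ENSG00000230021 had 9 to 22 counts a library.

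**Figure D4:**
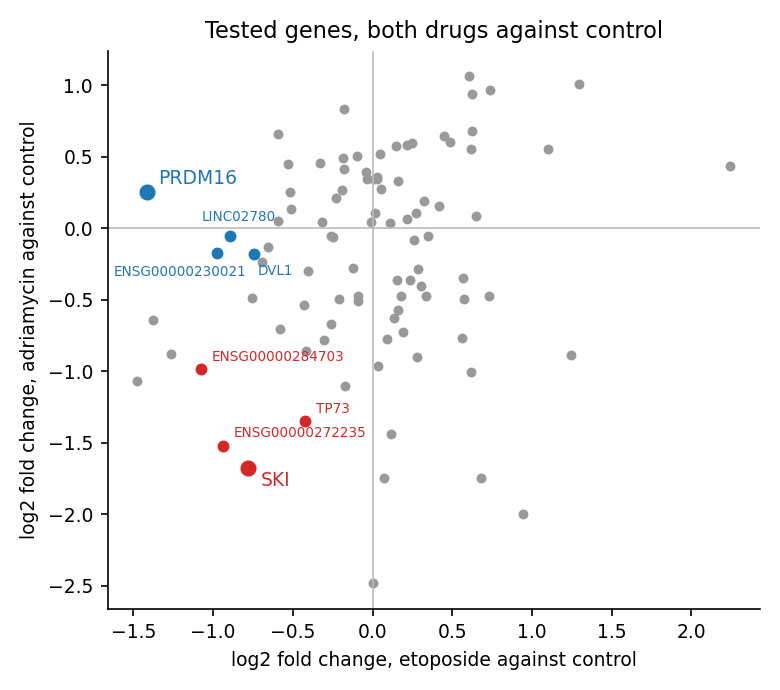
Log2 fold changes of the 94 tested genes with etoposide (horizontal) and adriamycin (vertical) against the same control libraries. SKI and its 3 closest genes are red, PRDM16 and its 3 closest genes blue, and PRDM16 at -1.41 and 0.25 stands far to the left above the zero line, while SKI lies at -0.78 and -1.67.

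The tables of the control and adriamycin libraries used here hold only the first part of the gene list, which contains SKI and PRDM16. The other 7 genes were analysed in the etoposide libraries alone, so their values are levels in etoposide-treated cells and say nothing of a response. These libraries held 21450766 and 14244235 counts over all genes. Levels are given as RPKM, reads per kilobase of merged exons (GENCODE release 44) scaled to the total counts of the library, so that genes of unlike length can be set beside each other. From highest to lowest, the order of the levels was SKI, SKIL, SMAD7, SMAD3, SMAD6, TGIF1, SMAD4, SMAD2 and PRDM16. The values of neighbours in this order overlapped between the libraries in 2 of 8 pairs, SMAD3 with SMAD6 and SMAD6 with TGIF1. None of the 9 genes differed between the 2 libraries beyond counting error (0 of 9 at an unadjusted p under 0.05, two-sided exact binomial test), whereas 29.9% of 17207 genes with at least 10 counts in both did. The largest difference among them was that of TGIF1, with a log2 ratio of -0.13.

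The corepressors SKI and SKIL led the order on merged exons, whereas the corepressor TGIF1 did not. SKI stood at 12.2 and 12.8 RPKM and SKIL at 8.91 and 8.90, from 1551 and 1029 counts of SKIL. SKI was thus 1.37-fold and 1.44-fold above its homologue SKIL in the libraries. In the same cells SKI was at a lower level than in control, as described above. TGIF1, from 497 and 362 counts, was at 2.85 and 3.13 RPKM. PRDM16 was lowest of all, at 0.258 and 0.273 RPKM, 47.3-fold and 46.9-fold below its binding partner SKI. Among 13715 coding genes with at least 10 counts in both libraries, SKI was at percentile 74.2 and PRDM16 at percentile 5.49 on merged exons. On canonical transcripts the percentiles were 65.1 for SKI and 3.75 for PRDM16.

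Of the signal-carrying SMADs, SMAD4 and SMAD2 lay in the lower part of the order on merged exons and SMAD3 in its middle. SMAD3, with 657 and 469 counts, was at 3.06 and 3.29 RPKM. SMAD2 had more reads, 1237 and 836, but its merged exons are the longest of the 9 genes at 36426 bases, and its level was 1.58 and 1.61 RPKM. SMAD4, the shared partner, had 712 and 459 counts and stood at 1.69 and 1.64 RPKM, close to SMAD2 but not overlapping it. Ratios to SMAD3 were 0.517 and 0.490 for SMAD2 and 0.553 and 0.50 for SMAD4. SMAD4 shares 967 exon bases with ENSG00000267699 on the same strand and SMAD3 182 with ENSG00000259347 on the opposite strand, and reads of these stretches cannot be assigned with certainty.

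The inhibitory SMADs, whose promoters are printed above, were both expressed. SMAD7, with 450 and 307 counts, was at 5.32 and 5.46 RPKM, and SMAD6, with 586 and 360 counts, at 3.19 and 2.95 RPKM. SMAD7 was 1.67-fold and 1.85-fold above SMAD6 on merged exons. The order of this pair turned when the canonical transcript was used as the length, an alternative added after the data were seen, with ratios of 0.880 and 0.977. On canonical transcripts the order was SKI, SKIL, TGIF1, SMAD6, SMAD7, SMAD3, SMAD4, SMAD2 and PRDM16, so both ends of the order were kept and the middle was rearranged. Per kilobase of the longest coding sequence, SMAD2 became the highest at 41.5 RPKM, ahead of SKI at 38.3. The level of SMAD2 beside the others therefore depends on how its long exons outside the coding sequence are counted.

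**Figure D5:**
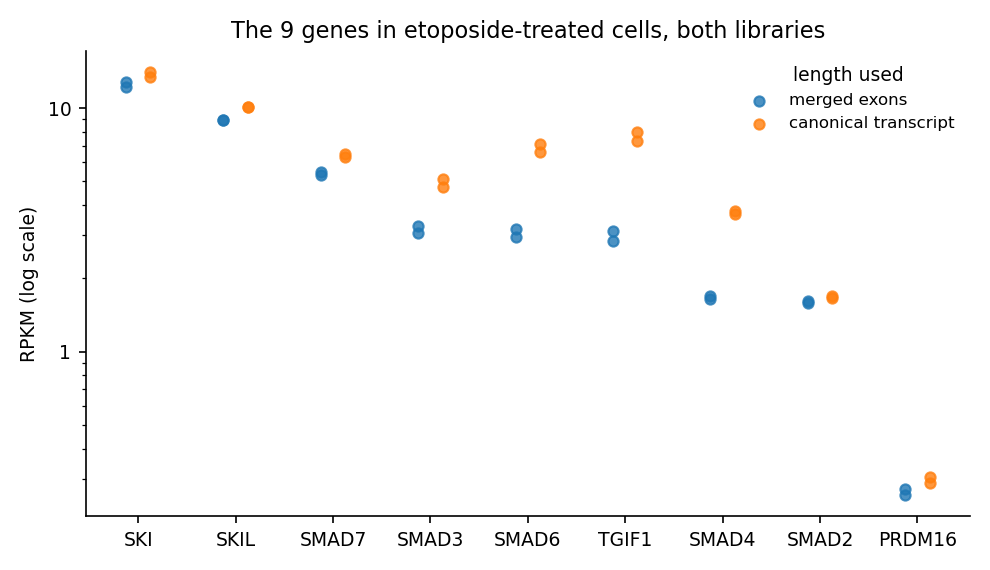
Levels of the 9 genes in the 2 etoposide libraries as RPKM on a log scale, with a point per library, on merged exons (blue) and on the canonical transcript (orange). SKI (12.2 and 12.8 on merged exons) and SKIL (8.91 and 8.90) are highest and PRDM16 (0.258 and 0.273) lowest with both lengths, while TGIF1 and SMAD6 move up in the order with the canonical transcript.

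The rest of the TGF-β and BMP pathway was described from a list of 58 genes sorted by role, of which 54 reached 10 counts in each etoposide library. Below that were INHBB (7 and 4 counts), ZEB2 (7 and 10), GREM1 (3 and 2) and CDKN2B (10 and 0). The median level of the list was 5.44 RPKM, that of the 9 genes 3.07 RPKM and that of all 13715 coding genes 4.75 RPKM. No comparison with control was made for these genes, whose control and adriamycin values were not analysed here.

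Upstream of the SMADs, 10 of 11 ligand genes passed the count minimum. TGFB1, the prototype ligand, was highest at 72.3 and 72.1 RPKM, and INHBA, the activin A subunit, followed at 16.0 and 18.4. All 11 receptor genes passed, led by TGFBR1, the type I receptor that phosphorylates SMAD2 and SMAD3, at 11.7 and 11.9 RPKM and by the coreceptor ENG at 7.08 and 8.61. TGFBR2, the type II receptor for TGF-β, was at 6.01 and 7.51 RPKM. Of the SMADs of the BMP branch, SMAD5 was highest at 7.90 and 8.52 RPKM, followed by SMAD9 at 3.12 and 3.41, and SMAD1 was at 2.44 and 2.14. On canonical transcripts SMAD1 stood at 5.76 and 5.05 RPKM, above SMAD9 at 3.35 and 3.65. The order of SMAD9 and SMAD1 therefore depends on the length used. SMAD5 was thus at a higher level than SMAD2, SMAD3 and SMAD4 on merged exons.

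Among nuclear partners 11 of 12 passed, led by the histone deacetylase HDAC1 at 28.5 and 28.6 RPKM and the corepressor CTBP1 at 9.30 and 9.21. MECOM, the PRDM family gene most closely related to PRDM16, was at 0.951 and 0.993 RPKM. All 6 genes of ubiquitin enzymes and the phosphatase passed, with PPM1A, a phosphatase of SMADs, at 7.31 and 7.51 RPKM and the ubiquitin ligase SMURF2 at 5.75 and 6.73. Of 6 inhibitors outside the cell or at the receptor 5 passed, with the BMP antagonist NOG at 57.0 and 55.2 RPKM and the activin antagonist FST at 14.5 and 14.6. Target genes of SMADs had the highest median of the roles, 49.9 RPKM, with 8 of 9 past the minimum. ID1, a target of the BMP branch, was at 460 and 388 RPKM. Such targets answer to other pathways as well.

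The labels give bone as the tissue and epithelial as the cell type. In the etoposide libraries, 5 of 10 osteoblast or mesenchymal markers had at least 10 counts in both, with COL1A1 at 393, SPARC at 244 and VIM at 159 RPKM (means), while TWIST1 had 0 counts and COL1A2 5 and 2. Of 6 epithelial markers 4 passed, with KRT8 at 130 and KRT18 at 72.4 RPKM but CDH1 at 0.231. Neither of 2 blood markers did, with PTPRC at 6 and 6 counts and HBB at 0. These markers were not analysed in the control and adriamycin libraries, and their part in the results on SKI and PRDM16 was not tested.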

How the data were processed

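RNA-Seq libraries of U2OS cells, 2 each of control, adriamycin and etoposide, were grouped by the sample labels. The authors purified poly-A RNA, mapped the read pairs with HISAT2 2.1.0 (GRCh38), counted them with featureCounts (Subread 2.0.0) and deposited raw counts per gene, without normalization; the submitters' notes also name DESeq2 1.30.1. Strand and multi-mapping options and the annotation release are not given in the sources used here. The etoposide libraries were analysed over 67140 genes, with 21450766 and 14244235 counts. The tables used here for the control libraries stop after 292 and 280 genes of the same list and those for the adriamycin libraries after 220 and 221, each within a last line that was left out. The genes after that were not analysed here in these groups. Groups were therefore compared over the 220 shared genes, 174 of them with a count, by edgeR 4.0.16 (R 4.3.3): TMM over these genes, the default filter on low counts (94 genes tested), the quasi-likelihood test in 1 fit of all 6 libraries and Benjamini-Hochberg adjustment. The biological coefficient of variation was 7.51%. SE is the log2 fold change over the square root of F. Symbols, lengths and coordinates are from GENCODE release 44, which named 60357 identifiers. RPKM, percentiles and intervals were computed with Python 3.11.15, pandas 2.3.3 and scipy 1.17.1. The procedure was tested on simulated data.

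The members and the lists were chosen with earlier results of these data known. Genes were named by a rule: the 9 members, the 3 nearest tested genes on each side of SKI and PRDM16, the 3 tested genes closest to each in both fold changes, the 2 genes of each pathway role with the highest level, and those under the count minimum. For 1 gene named by this rule the values are not reported here. TGFBR2, SMAD1, MECOM and the genes that outrank SKI were added after their values were seen. Alternatives were other scalings, DESeq2 1.42.0, other filters and thresholds, fits of 4 libraries, a replicate block, other lengths and leaving out each library.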

Additional observations from a re-analysis of the deposited data

How the results depend on the processing

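The 94 tested genes set the scale here. Scaling by library size alone moved their median log2 fold change to 0.22 with etoposide, -0.29 with adriamycin and -0.48 between the drugs, and upper-quartile scaling to 0.25, 0.12 and -0.10. SKI then stood at -0.58, -1.89 and -1.31 by library size alone and at -0.55 and -1.48 against control by upper quartiles, and PRDM16 between the drugs at 1.25 by library size alone. Relative to the median of each scaling, SKI lay between -0.81 and -0.80 with etoposide, at -1.60 with adriamycin and between -0.83 and -0.82 between the drugs, and PRDM16 at -1.44, 0.32 to 0.33 and 1.73 to 1.74. A change of scaling shifts all genes nearly alike, so this closeness follows from the subtraction and is no support. Other filters, which change the genes in the median, put SKI between the drugs at -0.63 (no filter) and -0.98 (at least 10 counts in every library) relative to it. With the 4 libraries compared alone, SKI between the drugs was at -1.0 and the genes called with adriamycin against control numbered 5. Leaving out a library gave PRDM16 values from -0.042 to 0.59 with adriamycin against control and from 1.37 to 1.98 between the drugs.

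Leaving out a library gave 0 to 5 called genes with etoposide, 5 to 8 with adriamycin and 3 to 13 between the drugs, and 0 to 1, 0 and 0 to 3 called neighbours. The fewest, 0, 5 and 3, were all reached without etoposide replicate 1. With at least 10 counts in every library, 0 neighbours were called with etoposide, and 6 genes and 1 neighbour between the drugs. By library size alone, 1 neighbour was called with adriamycin and 22 genes between the drugs. In the order of the 9 levels, 3 genes changed place on the longest transcript, 8 on the longest coding sequence, 4 on the canonical transcript and 2 with either library alone. The 36 neighbour fold changes gave 493 values under the alternatives, of which 15 were short of a call made before, 1 was newly called and 0 changed sign while called; the causes were not tested.

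No pairing by replicate number was seen in these values: deviations from the group means correlated at -0.070, 0.036 and -0.010 over 75 genes. Whether libraries of the same number were prepared together cannot be told from this. With the replicate number as a block, 5, 8 and 12 genes were called, as without it, and SKI with adriamycin was at -1.67 and PRDM16 with etoposide at -1.41. PRDM16, at 38 to 138 counts a library, has a larger relative counting error than SKI, and its adriamycin libraries differed beyond that error.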
